A study of Homo sapiens with 12 samples.

Results

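The IL-1 and IL-36 ligands, antagonists and receptors of human keratinocytes are described here through 10 genes taken by symbol from a deposited count table of 22545 genes. The listed symbols are IL1A, IL1B, IL36G, IL33, IL18, IL1RN, IL36RN, IL1R1, IL1RAP and IL1RL1, and all 10 were found and passed the low-count filter. The study sequenced RNA of HaCaT, an immortalised human keratinocyte line, in 12 libraries that form 4 groups of 3. One group received M5 and lefamulin, one received M5 and retapamulin, one received M5 alone and one was untreated; all carry the genotype label WT, and one cell line stands for all groups. Cell culture work commonly uses M5 for a psoriasis-like cytokine cocktail of which IL-1alpha protein is one component. Lefamulin and retapamulin belong to the pleuromutilins, antibiotics with a common tricyclic core; they have different side chains. The labels give neither the composition of M5 nor doses, exposure times or solvent, so whether the compounds were compared at matched doses is unknown. The series title frames the study as a question of whether pleuromutilins relieve psoriasis through hnRNP-U and TNF-alpha. The extraction text in the labels speaks of mouse epidermis, while every other label gives HaCaT cells. Whether the 3 libraries of a group came from separate cultures is not stated, so the p-values measure the spread between these libraries, which may be technical.

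IL-1 family cytokines are alarm signals of the epidermis. IL-1alpha and IL-1beta bind IL1R1, which recruits the shared chain IL1RAP and starts a MyD88, IRAK and TRAF6 cascade towards NF-kappaB; IL-36gamma does the same through IL1RL2 and IL1RAP, and IL-33 through IL1RL1 and IL1RAP. The products of IL1RN and IL36RN occupy the IL-1 and the IL-36 receptor without starting that cascade, and inherited loss of either antagonist is known to cause pustular inflammation of the skin.

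Each library held between 35110519 and 37520999 counted reads and between 17009 and 17955 detected genes. Levels are given in CPM, read counts scaled to a common library size with the trimmed mean of M-values (TMM), or in FPKM. FPKM are the deposited values, which divide by gene length and by the library total without TMM. They are used for summed markers and where one gene is set against another. The TMM factors ran from 0.915 to 1.11, so group differences in FPKM and in CPM differ somewhat. The 6 keratinocyte markers summed to 548 to 555 FPKM with M5 and lefamulin, 498 to 504 FPKM with M5 and retapamulin, 578 to 598 FPKM with M5 alone and 964 to 995 FPKM in untreated cells. KRT5 carried the fall, at 199 FPKM with lefamulin, 179 FPKM with retapamulin, 288 FPKM with M5 alone and 800 FPKM untreated. CDH3 and DSG3 were higher in every M5 group, with CDH3 at 172, 150 and 170 FPKM in that order against 61.9 FPKM untreated. CDH1 was higher with the compounds, and TP63 was highest with M5 alone. KRT14, a basal keratin, was low in this line, at 0.796 ± 0.148 CPM with M5 and lefamulin, 0.730 ± 0.275 CPM with M5 and retapamulin, 3.43 ± 0.320 CPM with M5 alone and 8.52 ± 0.470 CPM in untreated cells (SD, n = 3). The myeloid list of 5 genes summed to 0.126 to 0.254 FPKM with lefamulin, 0.0945 to 0.161 FPKM with retapamulin, 0.895 to 1.16 FPKM with M5 alone and 0.296 to 0.345 FPKM in untreated cells. PTPRC, the leukocyte surface phosphatase, had at most 2 reads in any group. CD14 carried the rise with M5 alone, at 0.971 FPKM against 0.261 FPKM in untreated cells. With lefamulin CD14 averaged 0.140 FPKM, and with retapamulin 0.0385 FPKM. The one T cell gene matched in the table stayed at or under 0.0610 FPKM. The fibroblast list stayed at or under 2.80 FPKM and the melanocyte list at or under 1.19 FPKM. The summed endothelial list was higher in all M5 groups, between 22.3 and 29.9 FPKM against 3.81 to 4.40 FPKM in untreated cells. Nearly all of it was CDH5, and PECAM1 had 1 or 2 reads per group. VWF went the other way with M5 alone, with 6 reads against 56 in untreated cells. It had 250 reads with lefamulin and 226 with retapamulin. The part of these lists in the results was not tested. In bulk RNA, fewer cells of a kind and less RNA per cell cannot be told apart.

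**Figure D1:**
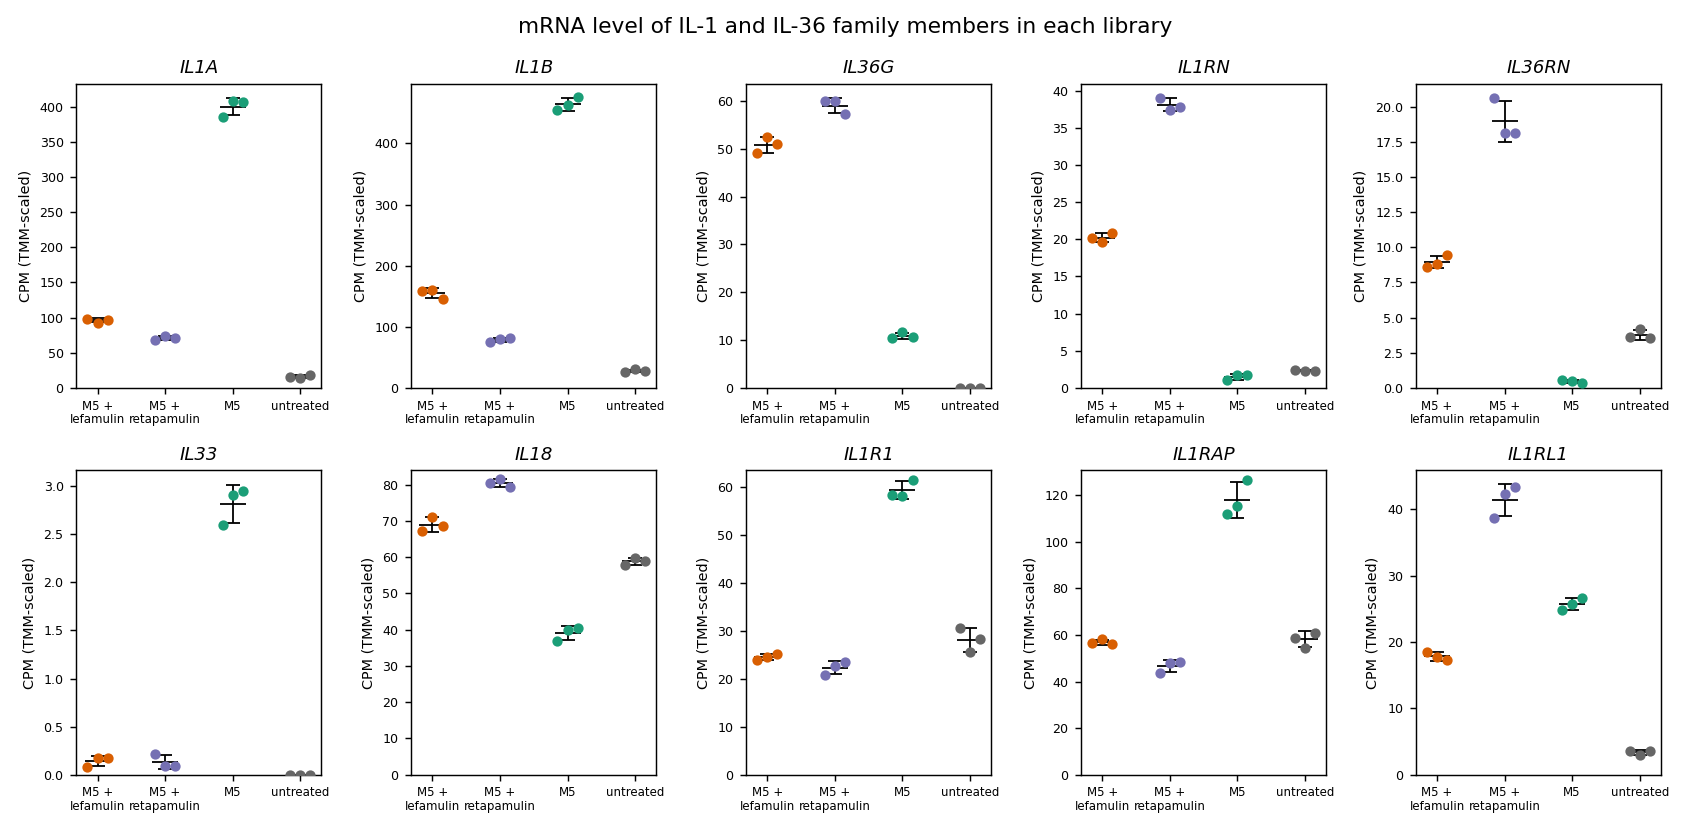
Level of each of the 10 genes in CPM (vertical axis, linear, starting at 0) in each of the 12 libraries, by group; points are libraries and bars are the mean and SD of 3. IL1A and IL1B peak with M5 alone, IL1RN and IL36RN peak with M5 and retapamulin, and IL33 is seen almost entirely with M5 alone.

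With M5 alone, the agonist genes IL1A, IL1B and IL36G and the receptor genes were higher than in untreated cells, and the genes of both receptor antagonists were lower. With either pleuromutilin added, IL1A and IL1B were lower than with M5 alone, IL1RN and IL36RN were higher than with M5 alone and also higher than in untreated cells, and IL36G was higher than with M5 alone. In edgeR's quasi-likelihood test with Benjamini-Hochberg adjustment over 14207 genes, 7 of the 10 genes were higher and 3 lower with M5 than in untreated cells, where 28.3% of all tested genes were called higher and 26.9% lower, 55.2% in all. With lefamulin, 4 were higher and 6 lower than with M5 alone, against 33.6% and 34.3% of all tested genes, 67.9% in all. With retapamulin, 5 were higher and 5 lower than with M5 alone, against 34.1% and 38% of all tested genes, 72.1% in all. The libraries of the groups did not overlap for any of the 10 genes in these comparisons; over all tested genes this held for 59.2% with M5 against untreated cells, 71.2% with lefamulin against M5 alone and 73.8% with retapamulin against M5 alone. Because more genes were called than not in each of these comparisons, a call by itself says little about these genes, and the description rests on the sizes. The median log2 fold change of the 10 genes was 2.01 for M5 over untreated cells, -0.79 for lefamulin over M5 alone and -0.32 for retapamulin over M5 alone, beside medians over all tested genes of -0.02 for M5, -0.00 for lefamulin and -0.05 for retapamulin. The comparisons of each compound with M5 alone use the same 3 M5 libraries.

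Of the 10 genes, IL1A, IL1B, IL36G, IL36RN and IL1RN lie in one cluster on chromosome 2 in the RefSeq order IL1A, IL1B, IL37, IL36G, IL36A, IL36B, IL36RN, IL1F10, IL1RN. IL1R1 and IL1RL1 lie in a receptor cluster on the same chromosome, IL1R1 between IL1R2 and IL1RL2, and IL1RL1 between IL1RL2 and IL18R1. The first listed promoter window is shown for each of the 2 agonists that fell with the compounds and the 2 antagonists that rose. They were chosen since these neighbours in one cluster moved in opposite directions. Each runs 5′ to 3′ on the gene's strand from 250 bases before the annotated start and ends 50 bases after it (RefSeq, GRCh38.p14). Capitals mark matches to the AP-1 motif TGANTCA, the STAT motif TTCNNNGAA or the kappaB consensus, searched on both strands; none of the marked stretches overlap. The IL1A window is chr2:112784444-112784743 on the minus strand, IL1B is chr2:112836730-112837029 on the minus strand, IL1RN is chr2:113117721-113118020 on the plus strand and IL36RN is chr2:113058388-113058687 on the plus strand.
IL1A: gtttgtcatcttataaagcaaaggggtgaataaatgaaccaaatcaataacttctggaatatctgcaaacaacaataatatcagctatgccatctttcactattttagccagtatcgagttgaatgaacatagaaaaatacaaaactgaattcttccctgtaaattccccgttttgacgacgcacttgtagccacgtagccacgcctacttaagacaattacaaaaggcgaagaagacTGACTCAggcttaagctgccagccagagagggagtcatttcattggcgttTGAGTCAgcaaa
IL1B: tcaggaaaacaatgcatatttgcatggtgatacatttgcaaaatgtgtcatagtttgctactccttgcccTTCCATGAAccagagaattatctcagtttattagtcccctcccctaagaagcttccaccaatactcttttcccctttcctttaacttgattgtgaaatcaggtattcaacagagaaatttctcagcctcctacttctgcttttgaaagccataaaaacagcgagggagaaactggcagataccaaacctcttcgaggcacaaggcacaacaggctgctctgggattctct
IL1RN: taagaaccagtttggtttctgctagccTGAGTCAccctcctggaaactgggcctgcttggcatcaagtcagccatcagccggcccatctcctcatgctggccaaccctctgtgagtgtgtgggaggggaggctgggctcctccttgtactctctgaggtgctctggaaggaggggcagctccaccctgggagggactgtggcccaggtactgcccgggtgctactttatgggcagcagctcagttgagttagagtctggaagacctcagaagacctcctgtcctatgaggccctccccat
IL36RN: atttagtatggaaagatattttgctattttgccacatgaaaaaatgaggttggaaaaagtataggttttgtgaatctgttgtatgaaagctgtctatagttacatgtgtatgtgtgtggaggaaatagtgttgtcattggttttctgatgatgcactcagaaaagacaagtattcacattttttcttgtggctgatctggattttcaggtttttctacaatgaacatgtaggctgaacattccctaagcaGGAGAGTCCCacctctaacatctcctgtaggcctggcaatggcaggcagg
In the windows shown, IL1A holds 2 AP-1 matches, at bases -12 to -6 and 38 to 44, counted from 0 at the start. IL1RN holds 1 AP-1 match, at bases -223 to -217. IL1B holds a STAT match at bases -180 to -172, and IL36RN a kappaB match, on the opposite strand, at bases 0 to 9. Windows 2 and 3 of IL1RN and window 2 of IL36RN, at other annotated starts, held none of these motifs. The listed window of IL36G, the agonist of this cluster that rose with the compounds, is not shown and also held none. Window 2 of IL1A overlaps the one shown and holds the same AP-1 matches. Of 18 RefSeq windows for 9 of the 10 genes, some of them overlapping, 4 held the AP-1 motif, 3 the STAT motif and 1 the kappaB consensus, while 7.71%, 7.66% and 11.3% of 35116 windows of all genes held them. A match is only a run of letters, and which start site HaCaT cells use was not measured.

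IL1A encodes IL-1alpha, which keratinocytes store and release when damaged. It stood at 98.5, 92.9 and 96.6 CPM with M5 and lefamulin, at 68.1, 73.6 and 70.9 CPM with M5 and retapamulin, at 386, 409 and 406 CPM with M5 alone, and at 14.9, 13.98 and 17.9 CPM in untreated cells. No group overlapped another, and both compound groups lay between M5 alone and untreated cells. M5 raised IL1A 25.6-fold over untreated cells (log2 fold change 4.68 ± 0.06 SE; edgeR, adjusted p = 4.5e-27). Against M5 alone it fell by 2.06 ± 0.05 on the log2 scale with lefamulin (edgeR, adjusted p = 2.7e-21) and by 2.50 ± 0.05 with retapamulin (edgeR, adjusted p = 6.7e-23). It was still 6.15-fold higher with lefamulin and 4.54-fold higher with retapamulin than in untreated cells.

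IL1B encodes IL-1beta, whose precursor needs cleavage, classically by caspase-1, before it signals. The 3 libraries held 158.7, 159.9 and 146 CPM with M5 and lefamulin, 75.0, 79.2 and 81.8 CPM with M5 and retapamulin, 454, 463 and 475 CPM with M5 alone, and 25.8, 30.2 and 26.9 CPM in untreated cells. The groups again did not overlap, and the retapamulin libraries were the lowest of those given M5. M5 raised IL1B 16.8-fold (log2 4.07 ± 0.05; edgeR, adjusted p = 4.6e-27). Against M5 alone it fell by 1.58 ± 0.04 on the log2 scale with lefamulin (edgeR, adjusted p = 6.9e-20) and by 2.56 ± 0.05 with retapamulin (edgeR, adjusted p = 9.4e-24).

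IL36G encodes IL-36gamma, the keratinocyte IL-36 agonist that marks psoriatic epidermis. It stood at 49.2, 52.5 and 50.9 CPM with M5 and lefamulin, at 59.9, 60.0 and 57.2 CPM with M5 and retapamulin, and at 10.5, 11.7 and 10.7 CPM with M5 alone, while untreated cells had 2, 1 and 2 reads. It did not follow IL1A and IL1B: both compound groups lay above M5 alone, and no group overlapped another. The log2 fold change over M5 alone was 2.22 ± 0.06 with lefamulin (4.65-fold; edgeR, adjusted p = 1.3e-20) and 2.43 ± 0.06 with retapamulin (5.39-fold; edgeR, adjusted p = 1.3e-21). The M5 change over untreated cells, 7.90 ± 0.18 on the log2 scale, rests on those 5 untreated reads (edgeR, adjusted p = 9.9e-22).

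IL33 encodes the nuclear alarmin IL-33, the ligand of IL1RL1. It had 3, 6 and 6 reads with M5 and lefamulin, 7, 3 and 3 reads with M5 and retapamulin, 97, 106 and 110 reads with M5 alone and none in untreated cells. In CPM the means were 0.141 ± 0.0504 with lefamulin, 0.129 ± 0.0710 with retapamulin and 2.82 ± 0.196 with M5 alone (SD, n = 3), so the compound groups overlapped each other and lay far under M5. IL33 fell by 4.29 ± 0.38 on the log2 scale with lefamulin (edgeR, adjusted p = 1.1e-09) and by 4.42 ± 0.39 with retapamulin (edgeR, adjusted p = 7.9e-10). Set against a floor of 3 reads over the whole untreated group, IL33 was at least 111-fold higher with M5 alone, at least 5.52-fold higher with lefamulin and at least 5.03-fold higher with retapamulin. The calls over untreated cells, which rest on 15 lefamulin and 13 retapamulin reads, were lost with limma on log2(FPKM + 1), at limma adjusted p = 0.122 for lefamulin and 0.172 for retapamulin. CXCL9 and CCL2, both chemokine genes, and the keratin gene KRT6B had the group profiles most like that of IL33. Their root mean square differences were 0.28 for CXCL9, 0.46 for CCL2 and 0.42 for KRT6B, in log2 units. With no untreated reads and few with the compounds, the IL33 profile depends on the 0.05 CPM added to each group mean.

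IL18 encodes IL-18, a cytokine that epithelial cells hold as an inactive precursor. Its level was 67.0, 71.2 and 68.4 CPM with M5 and lefamulin, 80.6, 81.6 and 79.2 CPM with M5 and retapamulin, 36.7, 39.8 and 40.5 CPM with M5 alone and 57.7, 59.8 and 58.9 CPM in untreated cells. IL18 was thus the one ligand gene of the 5 that was lowest with M5 alone, and no group overlapped another. With M5 it fell by 0.59 ± 0.04 on the log2 scale against untreated cells (edgeR, adjusted p = 2.7e-11). It rose by 0.82 ± 0.04 with lefamulin (edgeR, adjusted p = 2.6e-14) and by 1.04 ± 0.04 with retapamulin (edgeR, adjusted p = 1.4e-16) over M5 alone.

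IL1RN encodes the IL-1 receptor antagonist, in a secreted form and in intracellular forms that counts per symbol cannot separate. Its 3 libraries held 20.1, 19.7 and 20.8 CPM with M5 and lefamulin, 39.0, 37.4 and 37.8 CPM with M5 and retapamulin, 1.07, 1.68 and 1.74 CPM with M5 alone and 2.45, 2.26 and 2.30 CPM in untreated cells. Both compound groups lay above every library of the other groups, with retapamulin highest. IL1RN rose 13.5-fold with lefamulin (log2 3.75 ± 0.11; edgeR, adjusted p = 2.1e-19) and 25.4-fold with retapamulin (log2 4.67 ± 0.11; edgeR, adjusted p = 9.6e-22) over M5 alone. M5 itself lowered it (log2 fold change -0.64 ± 0.14; edgeR, adjusted p = 5.4e-04).

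IL36RN encodes the IL-36 receptor antagonist. It stood at 8.57, 8.84 and 9.43 CPM with M5 and lefamulin, at 20.6, 18.1 and 18.1 CPM with M5 and retapamulin, at 0.561, 0.467 and 0.375 CPM with M5 alone, and at 3.60, 4.202 and 3.55 CPM in untreated cells. No group overlapped another; M5 alone was lowest and retapamulin highest. M5 lowered IL36RN (log2 fold change -3.01 ± 0.17; edgeR, adjusted p = 1.8e-13). It rose 19.0-fold with lefamulin (log2 4.25 ± 0.16; edgeR, adjusted p = 2.1e-17) and 40.2-fold with retapamulin (log2 5.33 ± 0.15; edgeR, adjusted p = 5.8e-20) over M5 alone. Over untreated cells it was higher by 1.24 ± 0.11 with lefamulin (edgeR, adjusted p = 4.8e-10) and by 2.32 ± 0.11 with retapamulin (edgeR, adjusted p = 1.2e-15) on the log2 scale.

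**Figure D2:**
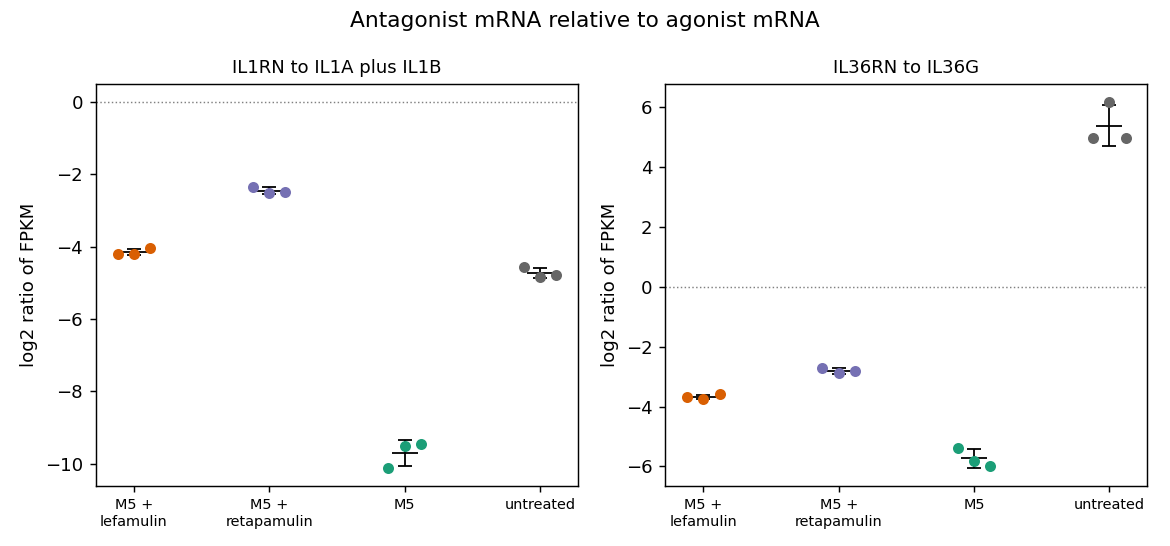
Log2 ratio of antagonist to agonist mRNA in FPKM (vertical axes) for IL1RN over the sum of IL1A and IL1B, and for IL36RN over IL36G, in each library by group; points are libraries, bars are the mean and SD of 3, and the dotted line marks equal levels. The IL-1 ratio is lowest with M5 alone, and the IL-36 ratio is above equality only in untreated cells.

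Per length, in FPKM, the antagonist and agonist messages can be set against each other within a library. The summed IL1A and IL1B level exceeded that of IL1RN 18.2, 18.4 and 16.5 times with M5 and lefamulin, 5.10, 5.67 and 5.63 times with M5 and retapamulin, 1098, 725 and 706 times with M5 alone, and 23.8, 28.5 and 27.7 times in untreated cells. Both compounds thus gave a smaller agonist excess than untreated cells had, with no overlap between groups. The mean log2 ratio of antagonist to agonists was -4.15 ± 0.09 with lefamulin, -2.45 ± 0.09 with retapamulin, -9.69 ± 0.36 with M5 alone and -4.73 ± 0.14 in untreated cells (SD, n = 3).

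The IL-36 pair did not return to the untreated state. IL36G exceeded IL36RN 12.8, 13.3 and 12.1 times with M5 and lefamulin, 6.51, 7.42 and 7.07 times with M5 and retapamulin and 41.9, 55.9 and 63.7 times with M5 alone, whereas in untreated cells IL36RN exceeded IL36G 31.5, 72.3 and 31.7 times. The untreated ratio rests on 5 IL36G reads in all, and the ratio with M5 alone on 52 IL36RN reads. The log2 ratio of antagonist to agonist differed from M5 alone by 2.06 with lefamulin and 2.92 with retapamulin, and from untreated cells by -9.05 with lefamulin and -8.18 with retapamulin. With 0.1 added to each FPKM these became 1.45 for lefamulin and 2.29 for retapamulin against M5 alone, and -7.19 for lefamulin and -6.35 for retapamulin against untreated cells. Each of the 6 group pairs was separated in both ratios, and the exact permutation test, two-sided, gave p = 0.1 in each, the smallest value that 3 against 3 libraries allow. These are ratios of messages, and protein, cleavage and receptor occupancy were not measured.

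IL1R1 encodes the signalling receptor of IL-1alpha and IL-1beta. It was at 23.9, 24.5 and 25.3 CPM with M5 and lefamulin, at 20.8, 22.7 and 23.5 CPM with M5 and retapamulin, at 58.3, 58.2 and 61.5 CPM with M5 alone, and at 30.6, 25.5 and 28.3 CPM in untreated cells. Only the M5 libraries stood high, and both compound groups lay under untreated cells. M5 raised IL1R1 2.11-fold (log2 1.08 ± 0.06; edgeR, adjusted p = 4.9e-14), and it fell by 1.27 ± 0.06 with lefamulin (edgeR, adjusted p = 1.6e-15) and by 1.41 ± 0.06 with retapamulin (edgeR, adjusted p = 2.0e-16) on the log2 scale against M5 alone.

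IL1RAP encodes the accessory chain shared by the IL-1, IL-33 and IL-36 receptors. It was at 56.5, 58.1 and 56.1 CPM with M5 and lefamulin, at 43.8, 47.8 and 48.4 CPM with M5 and retapamulin, at 112, 115 and 127 CPM with M5 alone, and at 58.9, 54.3 and 61.0 CPM in untreated cells. The lefamulin libraries lay within the untreated range and the retapamulin libraries under it. M5 raised IL1RAP 2.03-fold (log2 1.02 ± 0.05; edgeR, adjusted p = 6.9e-15), and it fell by 1.05 ± 0.05 with lefamulin (edgeR, adjusted p = 2.8e-15) and by 1.34 ± 0.05 with retapamulin (edgeR, adjusted p = 2.5e-17) on the log2 scale against M5 alone. IL1R1 and IL1RAP moved alike: over the 4 group means, IL1RAP was the second nearest profile to IL1R1 of 4984 genes compared, with a root mean square difference of 0.08 log2 units.

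IL1RL1 encodes ST2, the IL-33 receptor, as a membrane form and as a soluble decoy that counts per symbol cannot separate. It was at 18.5, 17.7 and 17.3 CPM with M5 and lefamulin, at 38.6, 42.2 and 43.3 CPM with M5 and retapamulin, at 24.8, 25.7 and 26.6 CPM with M5 alone, and at 3.55, 2.98 and 3.50 CPM in untreated cells. No group overlapped another, and M5 alone lay between the 2 compounds. M5 raised it 7.67-fold (log2 2.94 ± 0.08; edgeR, adjusted p = 5.5e-20). It fell by 0.53 ± 0.07 on the log2 scale with lefamulin (edgeR, adjusted p = 1.5e-07) and rose by 0.69 ± 0.06 with retapamulin (edgeR, adjusted p = 4.6e-10) against M5 alone. Exons of IL1RL1 overlap those of IL18R1 on the same strand, and those of IL1R1 and IL1RAP overlap noncoding genes, in GENCODE 29. How shared reads were assigned, and whether strand was used, is not stated.

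**Figure D3:**
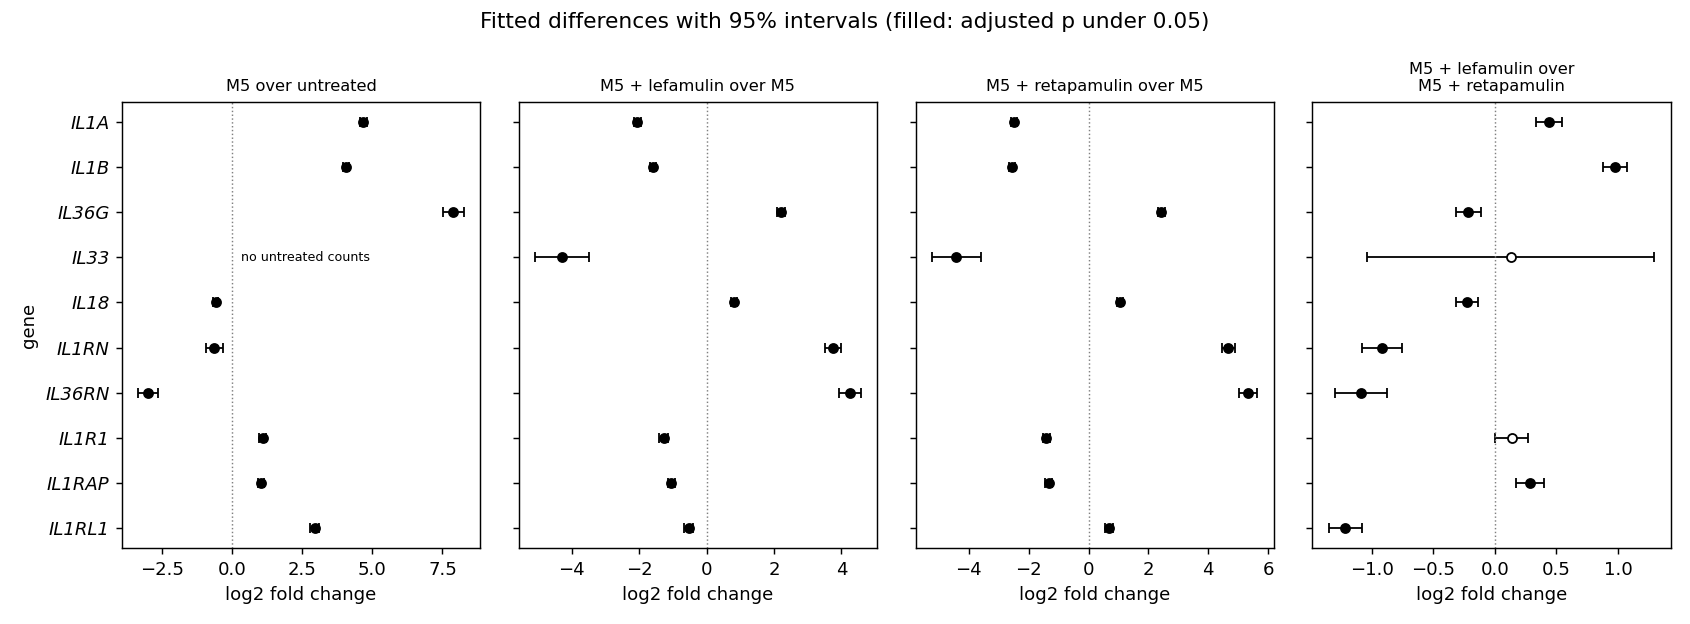
Log2 fold change of each gene (horizontal axes, with a scale of its own in each panel) for M5 over untreated cells, M5 and lefamulin over M5, M5 and retapamulin over M5, and M5 and lefamulin over M5 and retapamulin; bars are 95% intervals, and filled points have an adjusted p under 0.05 in edgeR. IL1RL1 lies on opposite sides of 0 in the middle panels, and in the last panel IL33 and IL1R1 are open.

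Between the compounds, 3 of the 10 genes were higher and 5 lower with lefamulin than with retapamulin (M5 in both), where 18.8% of all tested genes were called higher and 21.2% lower, 40% in all. For 7 of the 8 genes called, both compounds moved the gene the same way from M5 alone and retapamulin moved it further. The exception was IL1RL1, which moved in opposite directions. How many of all tested genes did the same was not counted. Against M5 alone, 72.1% of all tested genes were called with retapamulin and 67.9% with lefamulin, so this need not be particular to these genes. For lefamulin over retapamulin, the log2 fold change was 0.44 for IL1A (95% interval 0.33 to 0.54; edgeR, adjusted p = 3.3e-07) and 0.98 for IL1B (0.88 to 1.07; edgeR, adjusted p = 6.1e-14). The antagonists differed the other way, with -0.91 for IL1RN (-1.08 to -0.75; edgeR, adjusted p = 2.1e-09) and -1.08 for IL36RN (-1.29 to -0.87; edgeR, adjusted p = 1.2e-08). IL1RL1 had the largest difference of the 10, -1.21 (-1.35 to -1.08; edgeR, adjusted p = 4.4e-13). Smaller differences were called for IL36G, -0.21, for IL18, -0.22, and for IL1RAP, 0.29. The IL36G call was lost with limma on log2(FPKM + 0.1) (-0.13, limma adjusted p = 0.163). It was also lost on log2(FPKM + 1) without a low-value filter (-0.12, limma adjusted p = 0.0646). IL33 was not called, at 0.13 with an interval of -1.04 to 1.29 that leaves a difference of 1 log2 unit in either direction possible (edgeR, adjusted p = 0.883). IL1R1 was not called in the TMM fit, at 0.14 (0.01 to 0.27, edgeR, adjusted p = 0.0909). It was called on library totals (0.23, edgeR, adjusted p = 0.00553) and with limma on FPKM (limma adjusted p = 0.0193 to 0.0409 over the settings). Its lefamulin libraries all lay above its retapamulin libraries, and the libraries of the compounds did not overlap for 52% of all tested genes. Since doses are unknown, these differences cannot be told apart from a difference in dose.

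Against untreated cells, 8 of the 10 genes were higher and 1 lower with M5 and lefamulin, where 36.9% of all tested genes were called higher and 37.1% lower, 74% in all. With M5 and retapamulin, 8 were higher and 2 lower, where 37.6% of all tested genes were called higher and 40.9% lower, 78.5% in all. The libraries did not overlap for 9 of the 10 genes with lefamulin and for all 10 with retapamulin, where 76.1% of all tested genes did so with lefamulin and 79.2% with retapamulin. The 10 genes had a median of 2.45 on the log2 scale with lefamulin, which became 2.44 with IL33 placed at its bound, beside -0.02 over all tested genes. With retapamulin it was 2.25, beside -0.06. The chains of the IL-1 receptor were near or under the untreated level. IL1R1 had a log2 fold change over untreated cells of -0.20 with lefamulin (edgeR, adjusted p = 0.0061) and -0.33 with retapamulin (edgeR, adjusted p = 3.5e-05); the lefamulin call was lost without untreated replicate 1 (-0.14; edgeR, adjusted p = 0.0619). IL1RAP had -0.31 with retapamulin (edgeR, adjusted p = 8.2e-06), and with lefamulin -0.03 with an interval of -0.14 to 0.08 (edgeR, adjusted p = 0.624). IL18 was higher by 0.23 with lefamulin (edgeR, adjusted p = 3.5e-05), a call lost on library totals alone (0.06; edgeR, adjusted p = 0.171), and by 0.45 with retapamulin (edgeR, adjusted p = 5.5e-10).

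In FPKM the order of the genes differed by group. With M5 and lefamulin, IL1B averaged 96.5 ± 5.20, IL18 58.4 ± 1.78, IL1A 44.7 ± 1.35 and IL36G 41.1 ± 1.33 FPKM (SD, n = 3). With M5 and retapamulin, IL18 led at 64.1 ± 1.17 FPKM, and IL1B at 46.1 ± 1.59 and IL36G at 44.9 ± 1.48 FPKM lay within 1 SD of each other, ahead of IL1A at 31.0 ± 0.941 FPKM. With M5 alone, IL1B at 299 ± 5.64 and IL1A at 192 ± 6.61 FPKM stood far above IL18 at 34.1 ± 1.73 FPKM, and IL1RN at 0.609 ± 0.151 and IL36RN at 0.175 ± 0.0354 FPKM were lowest. In untreated cells IL18 led at 55.9 ± 0.881 FPKM, before IL1B at 19.3 ± 1.56 and IL1A at 8.14 ± 1.01 FPKM. IL1RN averaged 7.96 ± 0.203 FPKM with lefamulin and 14.1 ± 0.452 FPKM with retapamulin, the fifth level of the 10 genes in each.

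Of 11 other family members, 4 were tested. IL1R2, a decoy receptor for IL-1, averaged 17.9 ± 1.24 CPM with lefamulin, 24.4 ± 1.82 CPM with retapamulin, 22.4 ± 0.307 CPM with M5 alone and 10.8 ± 0.956 CPM in untreated cells (SD, n = 3). SIGIRR, an inhibitory receptor of the family, rose by 0.78 with lefamulin (edgeR, adjusted p = 1.2e-09) and by 0.84 with retapamulin (edgeR, adjusted p = 2.2e-10) on the log2 scale over M5 alone. IL18R1, the IL-18 binding chain, rose with M5 by 1.60 (edgeR, adjusted p = 1.4e-07) and fell by 0.74 with lefamulin (edgeR, adjusted p = 9.8e-04) and by 1.40 with retapamulin (edgeR, adjusted p = 5.2e-07) against M5 alone. The IL-36 receptor gene IL1RL2 was near the limit of detection, with 3 reads summed over the lefamulin libraries, 0 with retapamulin, 17 with M5 alone and 6 in untreated cells. Of the other IL-36 agonist genes, IL36A had at most 1 read in any group, and IL36B had 5 reads with lefamulin, 15 with retapamulin, 0 with M5 alone and 1 in untreated cells.

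Of 26 genes for processing and release of these cytokines, 19 were tested. With M5, 9 were higher and 6 lower than in untreated cells (median log2 fold change 0.19); against M5 alone, 7 were higher and 4 lower with lefamulin (median 0.02, and -0.02 on library totals) and 8 higher and 5 lower with retapamulin (median 0.19). Beside this, 28.3% of all tested genes were higher and 26.9% lower with M5, 33.6% and 34.3% with lefamulin and 34.1% and 38% with retapamulin, and the medians over all tested genes were -0.02 for M5, -0.00 for lefamulin and -0.05 for retapamulin. The share of the list called higher with lefamulin is near that of all genes. On library totals the list had 6 higher and 6 lower with M5 (median 0.07). There it had 7 higher and 7 lower with lefamulin, and 8 higher and 7 lower with retapamulin (median 0.06). CASP1, the caspase that activates IL-1beta and IL-18, averaged 3.998 ± 0.805 CPM with lefamulin, 2.28 ± 0.316 CPM with retapamulin and 13.003 ± 0.408 CPM with M5 alone. In untreated cells it averaged 6.33 ± 0.322 CPM, above both compound groups and under M5 alone. Against M5 alone it fell by 1.70 ± 0.13 with lefamulin (edgeR, adjusted p = 3.2e-11) and by 2.51 ± 0.14 with retapamulin (edgeR, adjusted p = 5.5e-14) on the log2 scale. PYCARD, the inflammasome adaptor ASC, was already lower with M5 than in untreated cells (log2 fold change -0.64; edgeR, adjusted p = 0.0037). Against M5 alone it fell by 1.08 ± 0.20 with lefamulin (edgeR, adjusted p = 3.1e-05) and by 0.87 ± 0.19 with retapamulin (edgeR, adjusted p = 3.0e-04). The inflammasome sensor NLRP3 went the other way at a low level, 0.852 ± 0.211 CPM with lefamulin and 1.68 ± 0.279 CPM with retapamulin against 0.189 ± 0.0692 CPM with M5 alone (edgeR, adjusted p = 1.5e-04 for lefamulin and 4.3e-07 for retapamulin). GSDMA, a pore-forming gasdermin of the epidermis, averaged 0.769 ± 0.0603 CPM with lefamulin and 0.698 ± 0.185 CPM with retapamulin against 0.0625 ± 0.0675 CPM with M5 alone, where it had 7 reads in all. CTSS, a protease known to activate IL-36gamma, averaged 54.1 ± 0.956 CPM with lefamulin, 53.7 ± 2.00 CPM with retapamulin, 29.2 ± 0.665 CPM with M5 alone and 3.84 ± 0.0441 CPM in untreated cells. It rose by 2.93 ± 0.06 on the log2 scale with M5 over untreated cells (edgeR, adjusted p = 3.9e-22), and over M5 alone by 0.89 ± 0.05 with lefamulin (edgeR, adjusted p = 1.8e-14) and by 0.88 ± 0.05 with retapamulin (edgeR, adjusted p = 1.7e-14).

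Of 13 genes of receptor signalling, 12 were tested, and against M5 alone 6 were higher and 2 lower with lefamulin (median log2 fold change 0.32) and 8 higher and 2 lower with retapamulin (median 0.49). Over all tested genes 67.9% were called with lefamulin and 72.1% with retapamulin, and 33.6% were higher with lefamulin and 34.1% with retapamulin, so the share called in the list is near the background and more of its calls were higher. On library totals 6 were higher and 3 lower with lefamulin (median 0.28), and 7 higher and 4 lower with retapamulin (median 0.35). TAB3, an adaptor of the kinase TAK1, averaged 379 ± 1.83 CPM with lefamulin and 446 ± 7.24 CPM with retapamulin against 118 ± 3.00 CPM with M5 alone, a log2 rise of 1.68 ± 0.04 with lefamulin (edgeR, adjusted p = 1.8e-21) and 1.92 ± 0.04 with retapamulin (edgeR, adjusted p = 9.2e-23). IRAK2, a kinase of the receptor complex, had 458 reads in all with lefamulin, 383 with retapamulin and 167 with M5 alone, beside 2 in untreated cells. TAB1, a TAK1 partner, fell by 0.47 with lefamulin (edgeR, adjusted p = 1.2e-06) and by 0.52 with retapamulin (edgeR, adjusted p = 2.2e-07). With M5 over untreated cells, 8 of the 12 were higher and 3 lower, with a median of 0.21, where 55.2% of all tested genes were called and 28.3% were higher. On library totals this became 6 higher and 3 lower, with a median of 0.09.

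A list of 19 genes known to respond to IL-1 and IL-36, many of which also respond to other cytokines of the M5 kind, had 16 tested. All 16 were higher with M5 than in untreated cells, by a median of 6.61 on the log2 scale; placing the 3 genes without an untreated read at their bound made it 5.82. Over all tested genes 28.3% were higher, with a median of -0.02. Against M5 alone, 14 were lower and 1 higher with lefamulin (median -1.09) and 14 lower and 2 higher with retapamulin (median -0.96), where 34.3% of all tested genes were lower with lefamulin (median -0.00) and 38% with retapamulin (median -0.05). The exceptions were CSF2, which encodes GM-CSF, and with retapamulin TNFAIP3, a brake on NF-kappaB. CSF2 averaged 9.97 ± 0.470 CPM with lefamulin and 25.3 ± 1.17 CPM with retapamulin against 1.66 ± 0.0887 CPM with M5 alone. S100A7, the antimicrobial protein psoriasin, fell by 2.03 ± 0.09 with lefamulin (edgeR, adjusted p = 9.7e-16) and fell by 3.72 ± 0.11 with retapamulin (edgeR, adjusted p = 7.9e-20) on the log2 scale. TNFAIP6, a hyaluronan-binding protein, had 4 reads with lefamulin and 2 with retapamulin against 103 with M5 alone. CSF3, which encodes G-CSF, averaged 105 ± 0.422 CPM with lefamulin, 175 ± 1.30 CPM with retapamulin, 317 ± 2.74 CPM with M5 alone and 0.0336 ± 0.0381 CPM in untreated cells. IL36G and CSF2 were thus higher with the compounds while most of this list was lower.

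**Figure D4:**
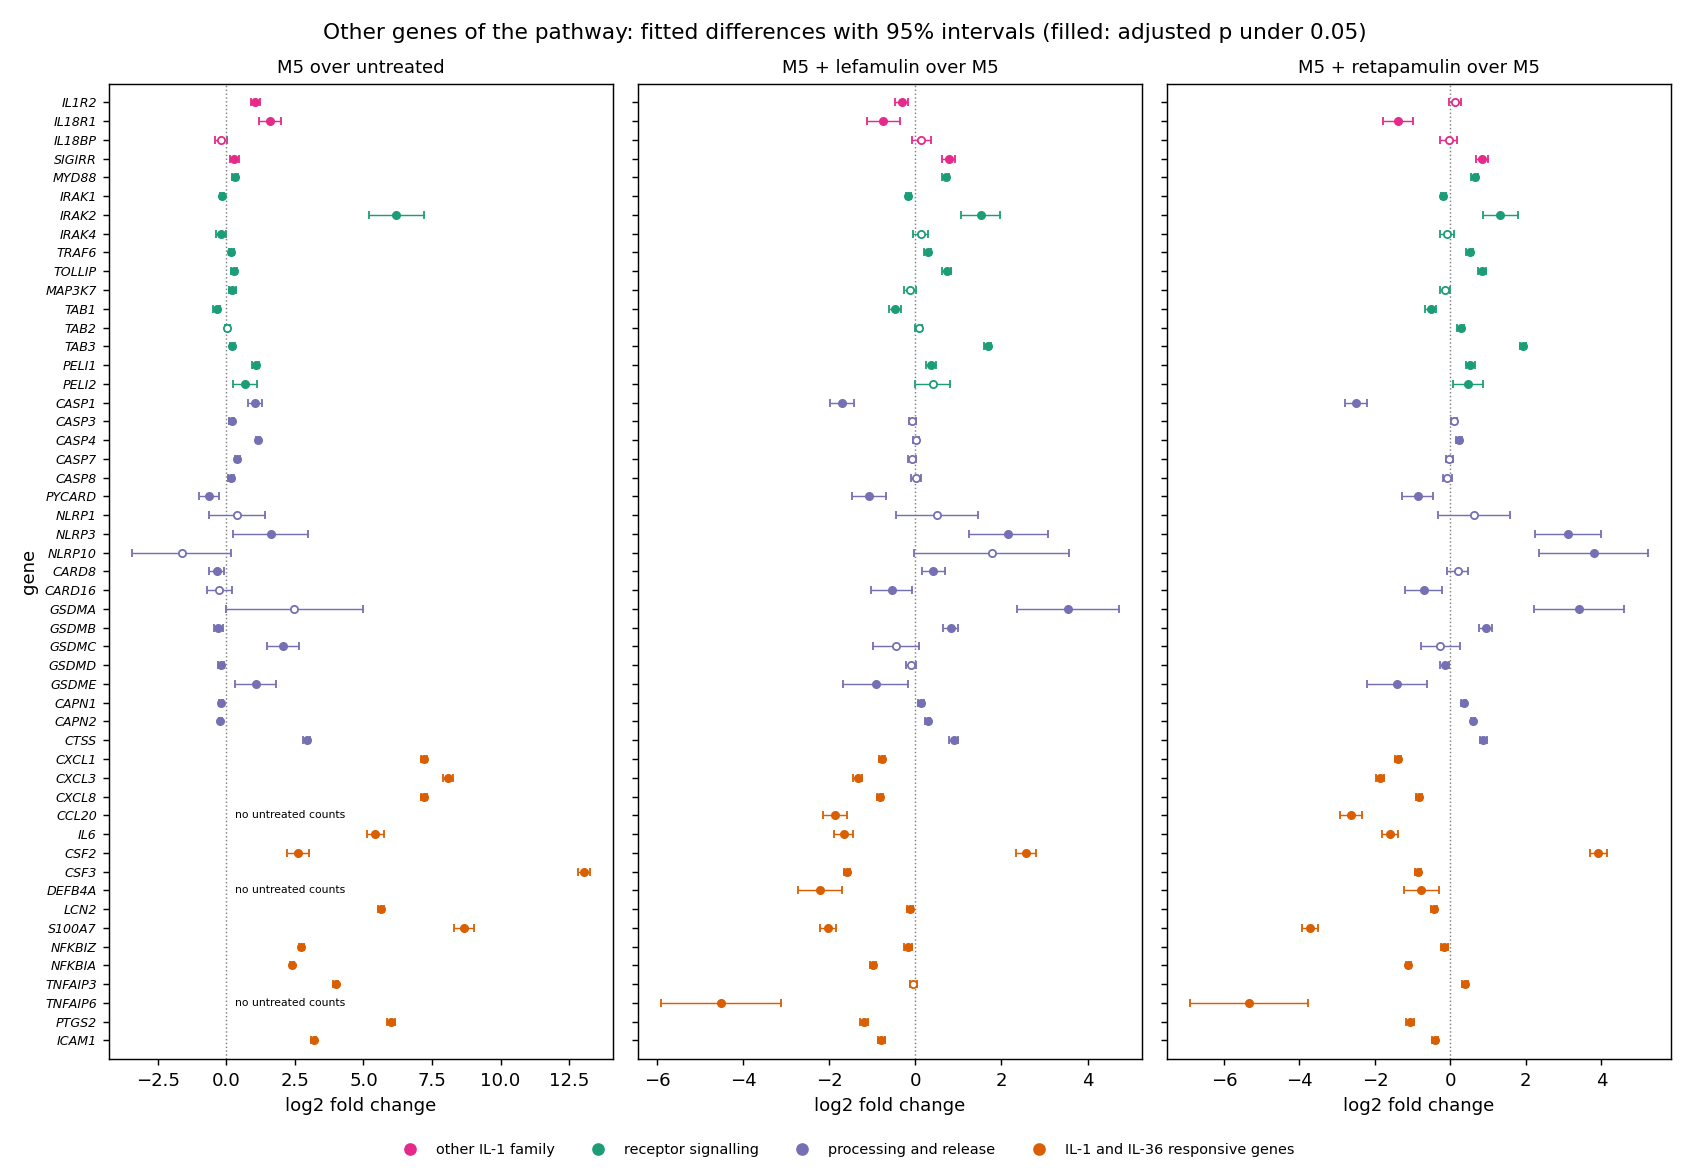
Log2 fold change (horizontal axes) of the tested genes of the other lists, for M5 over untreated cells, M5 and lefamulin over M5, and M5 and retapamulin over M5; colours mark the list, bars are 95% intervals and filled points have an adjusted p under 0.05 in edgeR. All 16 responsive genes lie right of 0 or had no untreated reads in the first panel, and 14 of them are filled left of 0 in each of the others.

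Genes with the most similar profile over the 4 group means, among 4984 genes spanning at least 1 log2 unit, were found for each of the 10 by the root mean square difference of centred log2 CPM, as a description. IL1A was nearest to the neutrophil-attracting chemokine gene CXCL6, with a difference of 0.09. IL1B was nearest to the chemokine gene CCL22, with 0.23, and IL1RL1 to AREG, which encodes the EGF receptor ligand amphiregulin, with 0.20. IL1RAP lay at 0.02 from LRIG1, a negative regulator of EGF receptor signalling, and IL1R1 at 0.04 from RBBP8, which acts in DNA end resection. IL1RN was nearest to the uncharacterised locus LOC107984256, with 0.07, and IL18 to the antisense gene MDN1-AS1, with 0.02. IL36G and IL36RN had the largest differences to their nearest profile, IL36G with 0.65 to the collagenase gene MMP1 and IL36RN with 0.32 to LOC105373414. IL36G averaged 0.0423 CPM in untreated cells, from 5 reads. That is under the 0.05 CPM added to each group mean, so its difference depends on that constant.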

How the data were processed

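RNA of 12 HaCaT libraries was measured by RNA sequencing. The authors deposited a table of read counts per gene and a table of FPKM values; per the submitters' processing notes HISAT2 and HTSeq were used, and versions, genome build and strand setting were not given there. In the deposited FPKM table, each value equalled the count divided by 1 fixed length per gene and by the column total (20422 of 20422 genes checked, tolerance 0.001). Each library held 35110519 to 37520999 counts, so precision is limited mainly for genes with few reads. Counts were fitted with edgeR 4.0.16 (R 4.3.3; filterByExpr, TMM, quasi-likelihood, 1 mean per group, all 12 libraries), with Benjamini-Hochberg adjustment over 14207 tested genes and calls at adjusted p under 0.05. The script was tested on simulated data. Alternatives used limma 3.58.1 on log2 FPKM, DESeq2 1.42.0, other scalings and filters, a replicate block and leaving out each library. A floor of 3 counts over a group stood in for groups without reads. Named genes were all 10 members in every comparison, the called genes of each other list with the largest changes (at most 2 up and 2 down), and the 3 nearest profiles per member (pseudocount 0.05 CPM). Some of these are not printed. Outside the rule, and chosen after their values were seen, stand the untested genes IL1RL2, IL36A and IL36B. So do the cell type markers KRT5, KRT14, CDH1, CDH3, DSG3, TP63, CD14, PTPRC, CDH5, PECAM1 and VWF. The same holds for list genes in comparisons other than the one that named them (S100A7, CSF3, NLRP3, PYCARD, IL1R2 and CTSS). The members, lists and rule were chosen with earlier results of these data known. Replicates differed beyond sampling noise (chi-square per degree of freedom 2.78 to 8.84).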

Additional observations from a re-analysis of the deposited data

Results flagged for a closer look

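IL1RL1 was called in opposite directions by the compounds against the same M5 libraries: it fell by 0.53 on the log2 scale with lefamulin and rose by 0.69 with retapamulin. The difference itself was tested in the same fit, and lefamulin over retapamulin gave -1.21 (95% interval -1.35 to -1.08; edgeR, adjusted p = 4.4e-13), lower in 3 of 3 lefamulin libraries. It was the only one of the 10 genes with this pattern, and how many of all tested genes share it was not counted. Doses are unknown, and exons of IL1RL1 overlap those of IL18R1.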

How the results depend on the processing

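Over 22 alternatives, 1293 of 1317 values for the 10 genes kept their direction and their side of the threshold, 11 lost the call, 8 gained it and 5 turned sign. The sign turned only where the difference was small. IL33 between lefamulin and retapamulin gave -0.02 without lefamulin replicate 2, -0.03 without lefamulin replicate 3 and -0.084 without retapamulin replicate 3 and -0.08 without replicate 2, within a range of -0.084 to 0.66 over the libraries left out. IL1RAP with lefamulin over untreated cells gave 0.0073 without untreated replicate 3, within a range of -0.075 to 0.0073. With limma on FPKM, the IL36G difference between the compounds lost its call with 0.1 added (-0.13, limma adjusted p = 0.163). It also lost the call on log2(FPKM + 1) without the low-value filter (-0.12, limma adjusted p = 0.0646). IL18 with lefamulin over untreated cells lost its call too (limma adjusted p = 0.126 to 0.184 over the FPKM settings). IL33 over untreated cells lost its call on log2(FPKM + 1), with the low-value filter (adjusted p = 0.122 for lefamulin and 0.172 for retapamulin) and without it (0.061 for lefamulin and 0.0979 for retapamulin). On library totals, IL1R1 between the compounds was called (0.23, edgeR, adjusted p = 0.00553) and so was IL1RAP with lefamulin over untreated cells (-0.19, edgeR, adjusted p = 0.00103). Both were also called with limma on FPKM, at limma adjusted p = 0.0193 to 0.0409 for IL1R1 and 0.00993 to 0.0158 for IL1RAP.

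Library totals in place of TMM moved the median of all genes to -0.14 for M5 over untreated cells, -0.19 for retapamulin over M5 alone and -0.31 for M5 and retapamulin over untreated cells. The share of higher among called genes moved with it, from 51.3% to 31.5% for M5 over untreated cells and from 47.0% to 72.8% for lefamulin over retapamulin; with RLE size factors the last was 36.8%. The cause of these shifts was not tested.

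With 0.1 added to each FPKM, the log2 ratio of IL36RN to IL36G differed by -8.64 for M5 over untreated cells, 1.45 for lefamulin and 2.29 for retapamulin over M5 alone, and -7.19 for lefamulin and -6.35 for retapamulin over untreated cells, against -11.11, 2.06, 2.92, -9.05 and -8.18. The IL1RN ratio with retapamulin over untreated cells gave 2.17, against 2.28.

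Replicate numbers showed no common pairing of the libraries, though this cannot show that the cultures were unpaired. After the group mean of each gene was subtracted from log2 CPM, the deviations of same-numbered libraries correlated at -0.193 to 0.317. These correlations had a mean of 0.00837. The mean for different numbers, -0.0046, is no separate comparison, since the deviations cancel out within each group. The highest values, 0.317 for replicate 3 and 0.241 for replicate 2, were between untreated and M5 libraries, where replicate 1 gave -0.0894. With the replicate number as a block, genes called for M5 over untreated cells went to 7780, against 7839 without it, and no call among the 10 genes changed.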
